A study of Mus musculus with 10 samples.

Results

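Potassium channel genes were taken as the transcripts whose mouse symbol starts with Kcn and whose mean level over 10 libraries was at least 0.5 FPKM (fragments scaled to transcript length and library size). This rule kept 79 of the 99 Kcn symbols in a table of 56691 genes. The RNA came from 10 wild-type mice, with 1 library per mouse, and from the medial habenula, a paired nucleus above the thalamus. The withdrawal group was 6 mice that received nicotine ditartrate intraperitoneally at 4 mg/kg, 2 injections a day, for 14 days, with saline in place of nicotine from day 15. The control group was 4 mice that received saline intraperitoneally for 17 days, and tissue of both groups was taken on day 17. Age, sex, litter and batch are not given in the labels. The comparison asks how the channel transcripts of this nucleus differ in mice withdrawn from nicotine and in mice never given it.

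Potassium channels let potassium leave the cell, which sets the resting potential, ends the action potential and spaces one spike from the next. Voltage-gated (Kv) subunits open on depolarisation, inward rectifiers (Kir) and K2P leak channels act near rest, and BK and SK channels open when calcium enters. Auxiliary subunits, among them the Kv beta and KChIP proteins, change the traffic and gating of the pores. Neurons of the ventral medial habenula are cholinergic and those of the dorsal part make substance P, and many fire spontaneously, which depends on the balance of such currents.

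The promoters of the G protein-gated inward rectifier genes Kcnj3, Kcnj6 and Kcnj9 are shown because they encode subunits of the same channel family, and with 8 of the 10 libraries Kcnj3 and Kcnj6 fell in withdrawal while Kcnj9 rose. None of the 3 had an adjusted p under 0.05 with all 10 libraries, and the Kcnj9 call held in 1 of 8 fits that left out a library. They are RefSeq windows on GRCm38.p6 of 250 bases before to 50 bases after a transcript start, read on the gene's strand, and capitals mark a GC box (GGGCGG) or a TATA box (TATAAA) on either strand.
Kcnj3, chr2:55435720-55436019, plus strand: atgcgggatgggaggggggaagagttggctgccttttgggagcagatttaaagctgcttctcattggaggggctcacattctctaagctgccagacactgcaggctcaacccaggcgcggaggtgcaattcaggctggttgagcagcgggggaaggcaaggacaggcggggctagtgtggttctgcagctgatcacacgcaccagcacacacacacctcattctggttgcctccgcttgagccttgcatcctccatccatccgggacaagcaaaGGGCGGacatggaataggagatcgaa
Kcnj6, chr16:94997647-94997946, minus strand: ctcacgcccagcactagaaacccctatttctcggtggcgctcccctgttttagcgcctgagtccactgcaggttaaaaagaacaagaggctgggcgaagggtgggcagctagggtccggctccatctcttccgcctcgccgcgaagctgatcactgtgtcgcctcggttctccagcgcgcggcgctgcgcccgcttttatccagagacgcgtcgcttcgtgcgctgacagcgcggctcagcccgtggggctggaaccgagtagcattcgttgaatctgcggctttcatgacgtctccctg
Kcnj9, chr1:172329273-172329572, minus strand: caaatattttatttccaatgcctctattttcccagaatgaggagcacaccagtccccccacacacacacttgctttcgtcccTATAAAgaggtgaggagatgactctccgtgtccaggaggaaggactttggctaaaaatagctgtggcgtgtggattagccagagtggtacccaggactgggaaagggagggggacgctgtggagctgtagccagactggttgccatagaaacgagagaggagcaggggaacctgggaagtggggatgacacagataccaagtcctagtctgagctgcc
The window of Kcnj3 held 1 GC box, in the 50 bases after the start. That of Kcnj9 held 1 TATA box, nearer the upstream end of the window than the start. That of Kcnj6 held neither but 30 CpG pairs, against 10 in Kcnj3 and 5 in Kcnj9. A second start of Kcnj6 in the table had 1 GC box. The window of Kcnj5, the other G protein-gated gene among the members, is not shown and held 2 GC boxes, 0 TATA boxes and 10 CpG pairs. Of the 79 members, 57 had a window in the table, with 81 windows in all. A GC box was found in 48.1% of these windows, against 35.7% of all 32851 windows, and a TATA box in 4.94%, against 13.6%. The windows of members had a median GC content of 58.33% and 9 CpG pairs, against 52.67% and 7 over all windows. The part of this composition in the motif shares was not tested. The cyclic AMP response element TGACGTCA was found in 0 of the 81 windows, against 1.79% of all windows. No match overlapped another in the 3 windows shown, and a match is a description of the sequence. A link between these matches and the changes of the genes was not tested.

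The members comprised 34 of 40 Kv pore genes, 12 of 15 Kir genes, 9 of 14 K2P genes and 14 of 17 auxiliary subunit genes. They also held 7 of 8 genes grouped as calcium- and sodium-activated channels and 3 of 5 non-coding transcripts. Kcnu1 was placed in that channel group by gene family, not by what opens it. All 79 had reads in every library. At the threshold, Kcnmb4os1 (0.587 FPKM), Kcns1 (0.618 FPKM) and Kcnu1 (0.638 FPKM) were just inside, and Kcnab3os (0.482 FPKM), Kcnh4 (0.461 FPKM) and Kcnk5 (0.403 FPKM) were just outside. The other 17 symbols left out lay lower, and they included Kcnq1, Kcnn4, Kcna7 and Kcna10.

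Per length, the transcript with the highest mean was Kcnj10, the Kir4.1 channel of astrocytes and other glia, at 62.2 FPKM. It was followed by Kcnd2, the pore of the somatodendritic A-type current, at 44.2 FPKM, and Kcnma1, the BK pore, at 41.5 FPKM. Kcnk1, a K2P subunit, had 37.1 FPKM, and Kcnab2, a Kv beta subunit, had 35.2 FPKM. Kcnj13 and Kcne2, both abundant in choroid plexus epithelium, followed at 34.6 and 31.8 FPKM. The KChIP genes Kcnip4 and Kcnip2 had 21.0 and 20.7 FPKM. In all, 26 members had a mean of at least 10 FPKM and 22 had less than 2 FPKM. Neighbours in this order can lie within the spread of libraries: over the 6 withdrawal libraries Kcnd2 averaged 42.8 ± 14.7 FPKM (SD) and Kcnma1 45.2 ± 20.0 FPKM.

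**Figure D1:**
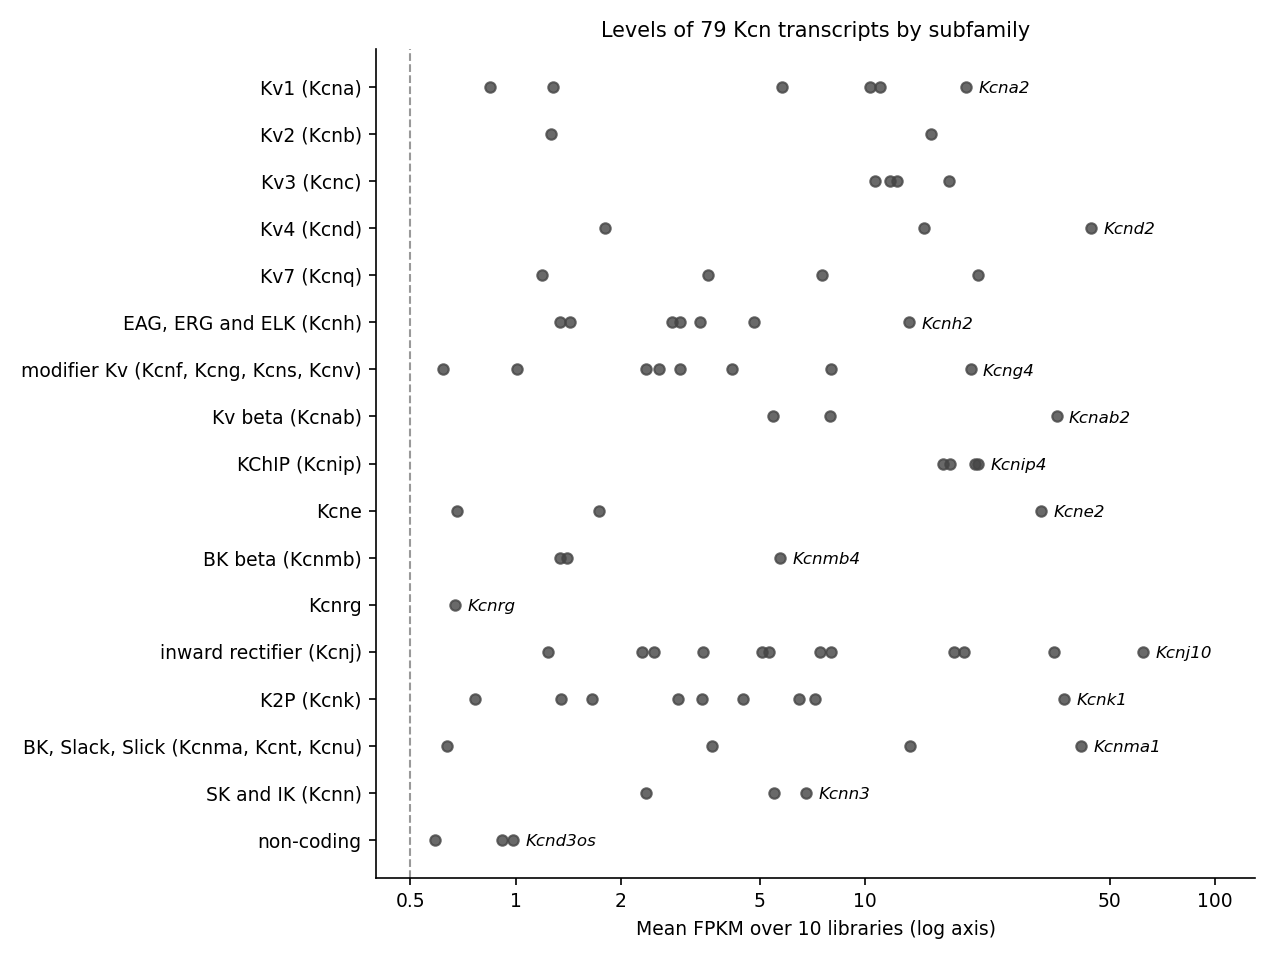
Mean level of each of the 79 Kcn transcripts over the 10 libraries (horizontal log axis, FPKM), in rows by subfamily, with the member of the highest mean named in 14 of the 17 rows and the threshold of 0.5 FPKM dashed. The 4 KChIP genes lie close together above 10 FPKM, while the Kir and K2P rows spread widely, with Kcnj10 at 62.2 FPKM and Kcnk1 at 37.1 FPKM at their high ends.

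The files hold 15023448 to 22026333 counts per library, and the Kcn members took between 0.441% and 0.503% of them in 8 libraries, 0.370% in withdrawal 2 and 0.636% in control 2. Those 2 libraries stand apart. The 12 markers of the medial habenula, summed as CPM (each library's counts brought to the same total, corrected by TMM factors so that the bulk of genes is level between libraries), reached 252 CPM in withdrawal 2 and 41.5 CPM in control 2. They lay between 1980.3 and 2477 CPM in the 5 withdrawal libraries and between 1785 and 2297 CPM in controls 1, 3 and 4. Chat, the enzyme that makes acetylcholine, had 0.199 CPM in withdrawal 2 and 0.16 CPM in control 2. In the other libraries Chat lay between 26.5 and 40.7 CPM in the 5 withdrawal libraries and between 27.8 and 35.8 CPM in controls 1, 3 and 4. The 8 markers of hippocampal and cortical neurons summed to 2527 CPM in withdrawal 2 and 8642 CPM in control 2. Elsewhere their sum lay between 355 and 555 CPM in the 5 withdrawal libraries and between 1136 and 2476 CPM in controls 1, 3 and 4. The sample labels name sorted cholinergic neurons of the nucleus, while the series text speaks of its tissue. The 6 oligodendrocyte markers summed to between 5809.6 and 14440.2 CPM in the 10 libraries, far above Chat, so RNA of glia was in every library. The comparison was made with all 10 libraries and with the 8 that hold medial habenula markers.

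With all 10 libraries, 0 of the 79 members passed the threshold, an adjusted p under 0.05 from edgeR's quasi-likelihood test with Benjamini-Hochberg adjustment over all 17426 genes of at least 0.5 FPKM. Over all these genes 0.166% passed. At an unadjusted p under 0.05 there were 16 members (20.3%), against 14.9% of all genes, and 15 of the 16 were lower in withdrawal. The exception was Kcna6, an axonal Kv1 subunit (log2 change 0.34 ± 0.11 SE, unadjusted p = 0.013). The DESeq2 Wald test called 5 members and 410 genes in all, and the 5 members, among them Kcnab2, Kcnh3, Kcnj4 and Kcnn2, were lower. Without withdrawal 2 alone, edgeR called 11 members and 814 genes in all, and the 11 members were lower, among them Kcna1 (adjusted p = 0.0031), Kcnj4 (adjusted p = 0.0142) and Kcnk1 (adjusted p = 0.0153). The median log2 change of the members was -0.09, and that of all genes tested was 0.02.

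In the 10 libraries, the withdrawal and control values of only 2 members did not overlap (2.53%, against 3.27% of all genes). Both encode SK channels, which calcium opens after a spike and which lengthen the afterhyperpolarisation. The values of Kcnn1, the other SK gene among the members, overlapped. Kcnn2 was lower in every withdrawal library but did not pass the threshold (adjusted p = 0.196), and Kcnn3 was higher in every one. For Kcnn3, the lowest of the 6 withdrawal libraries held 72.6 CPM, the median was 81.6 CPM and the highest held 89.0 CPM, against 60.4, 19.2, 64.4 and 72.2 CPM in controls 1 to 4. The gap between the lowest withdrawal library and control 4 was smaller than the spread within either group. Kcnn3 did not pass the threshold (log2 change 0.58 ± 0.29 (SE), adjusted p = 0.37), nor did it in 8 libraries (log2 change 0.28, adjusted p = 0.0598).

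**Figure D2:**
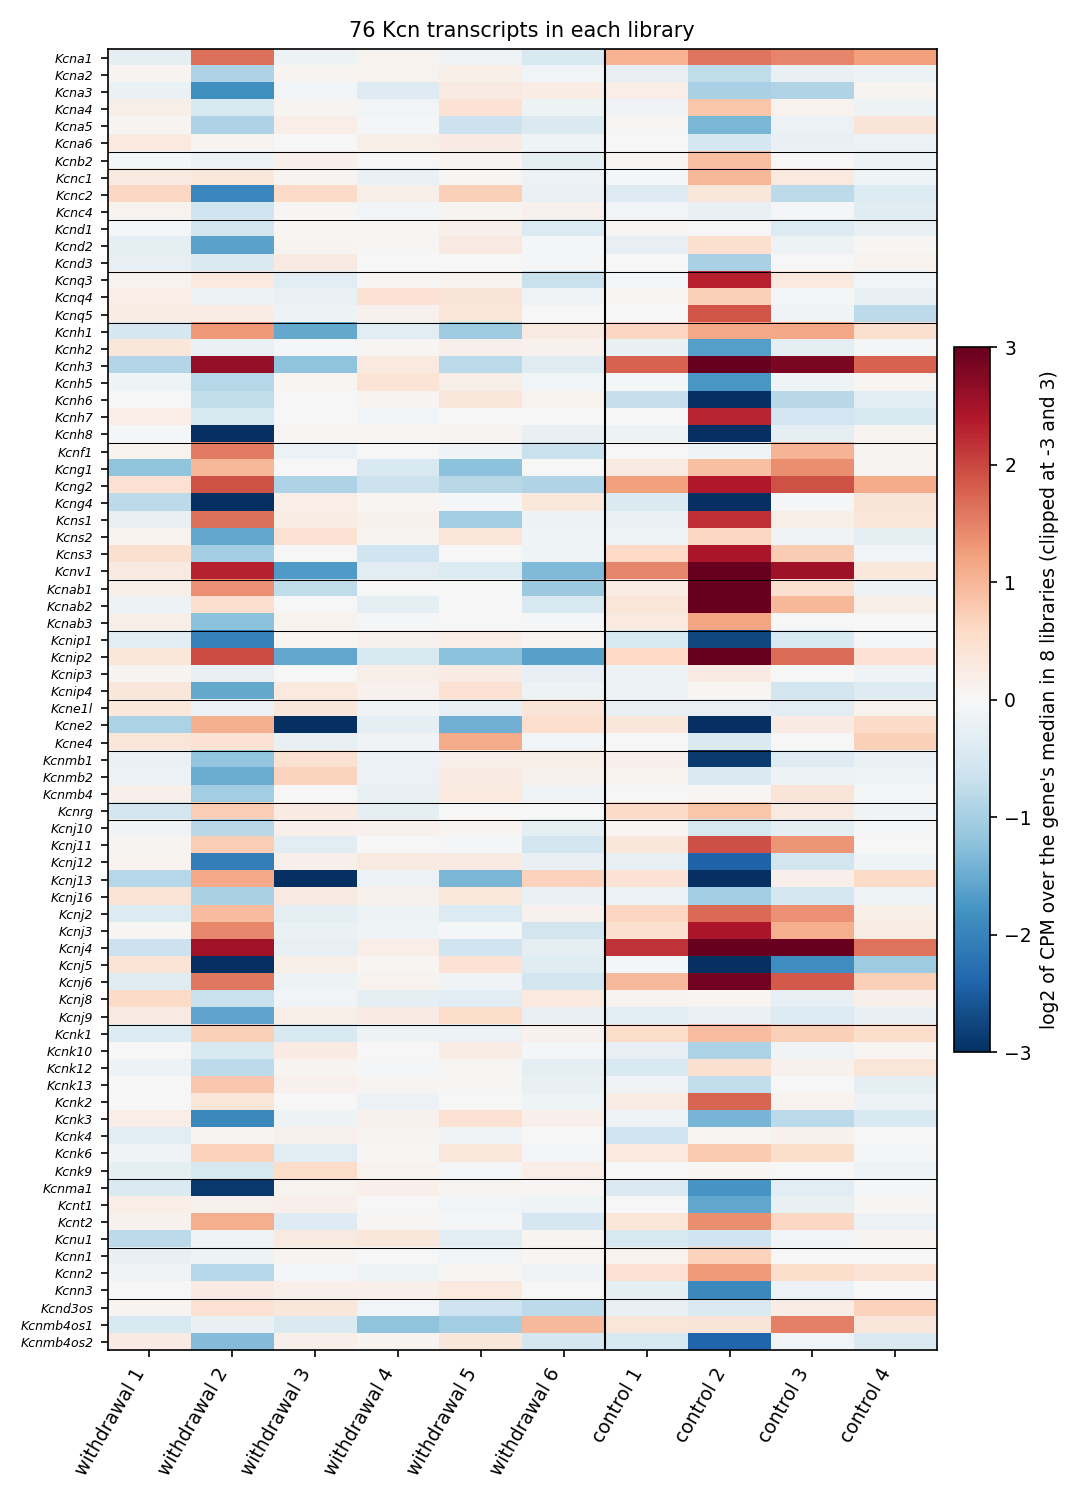
Level of 76 members (rows, grouped by subfamily from Kv1 at the top to non-coding at the bottom) in each library (columns, withdrawal left of control), as the log2 of its CPM over the gene's median in the 8 libraries with habenula markers, clipped at 3 either way. Control 2 and withdrawal 2 hold most of the strong colours, and in Kcna1, Kcnh3, Kcng2, Kcnj4 and Kcnj6 controls 1, 3 and 4 also stand above the other withdrawal libraries.

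In the 8 libraries with medial habenula markers (5 withdrawal, 3 control), 20 of the 79 members passed the threshold (25.3%), against 12.1% of all genes tested. Lower in withdrawal were 14 members (17.7%), against a background of 6.77% of all genes. Among them were Kcna1, Kcnab2, Kcng2, Kcnh1, Kcnh3, Kcnip2, Kcnj2, Kcnj3, Kcnj4, Kcnj6, Kcnk1, Kcnn2 and Kcnv1. Higher in withdrawal were 6 members (7.59%), Kcna2, Kcnc2, Kcnh6, Kcnip4, Kcnj9 and Kcnk3, against a background of 5.38%. At an unadjusted p under 0.05 there were 35 members (44.3%), against 28.9% of all genes, and the groups did not overlap in 20 members (25.3%), against 21.9%. The median log2 change was 0.01 over the members and 0.01 over all genes. In 8 of the 20, among them Kcna1, Kcng2, Kcnh3, Kcnj4, Kcnj6, Kcnk1 and Kcnn2, the call held whichever of the 8 libraries was left out, and all 8 were lower in withdrawal. With all 10 libraries, which include these 8, the log2 changes of the 20 had the same sign, with adjusted p of 0.196 to 0.687. The shared libraries favour the same sign. The count fell to those 8 without control 3 and to 11 without withdrawal 5. How many of all genes passed in those fits is not given here. In bulk RNA, fewer cells of a type and less RNA per cell cannot be told apart.

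Values of other cell types moved with these calls. Among the 8 libraries, control 3 held the highest level of all 14 members that were lower in withdrawal, against 754 of the 1179 lower genes over the whole table, and control 4 was the lowest control in 12 of the 14, against 578 of the 1179. Control 3 also held the highest hippocampal and cortical sum, 2476 CPM, against 1244 CPM in control 1 and 1136 CPM in control 4. Of the 8 markers of that list, 4 fell in withdrawal (Neurod6, Neurod2, Camk2a and Bcl11b) and 0 rose. Neurod6 lay at 1.07, 1.54, 1.87, 1.97 and 1.75 CPM in withdrawal 1, 3, 4, 5 and 6, against 15.9, 56.2 and 3.21 CPM in controls 1, 3 and 4. The oligodendrocyte markers were lower too, with 5 of 6 past the threshold and a sum between 5809.6 and 10018 CPM in the 5 withdrawal libraries and between 10981 and 12236 CPM in controls 1, 3 and 4. Of the 8 thalamic and lateral habenula markers, Lef1 and Slc17a6 were higher in withdrawal and Gabra5 was lower, and the sum lay between 782 and 1312 CPM in the 5 withdrawal libraries and between 610.3 and 816 CPM in controls 1, 3 and 4. Over all 75 markers of 11 cell types, 3 were higher and 14 lower, against 5.38% and 6.77% of all genes. Their log2 changes were above 0 in 32 and below 0 in 43. All 7 GABAergic changes were below 0 (median -1.61), and 0 of the 7 passed the threshold. Only the GABAergic list had markers at 0 counts in some library, 3 of its 7. The changes of all 12 medial habenula markers were above 0 (median 0.12). Of the 12, 1 passed, Calb2, which was higher in withdrawal (log2 change 0.67, adjusted p = 0.0258). The part of these differences in the channel results was not tested.

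Among the Kv1 genes, whose channels sit along axons and hold back repetitive firing, the pair with opposite changes was Kcna1 and Kcna2. Kcna1 lay at 23.1, 25.3, 30.4, 26.1 and 20.6 CPM in withdrawal 1, 3, 4, 5 and 6, against 58.0, 77.4 and 65.8 CPM in controls 1, 3 and 4. Its groups did not overlap, with means of 25.1 ± 3.65 CPM in withdrawal and 67.1 ± 9.76 CPM in controls (SD, n = 5 and 3), and it had the smallest adjusted p of all members (log2 change -1.42 ± 0.13 (SE), adjusted p = 0.000441). Withdrawal 2 held 88.6 CPM and control 2 held 85.4 CPM, so withdrawal 2 stood above all controls. Kcna2 rose slightly: it lay at 271, 269, 276, 288 and 243 CPM in withdrawal 1, 3, 4, 5 and 6, against 216, 219.6 and 229 CPM in controls 1, 3 and 4 (log2 change 0.28 ± 0.06 (SE), adjusted p = 0.0213). Its lowest withdrawal value was above its highest control value, and withdrawal 2 held 134 CPM and control 2 held 151 CPM. The Kcna2 call was lost without withdrawal 5, control 1 or control 3 (adjusted p between 0.0522 and 0.0554). The other 4 Kv1 members did not pass the threshold, Kcna6 among them (log2 change 0.26, adjusted p = 0.125), except that Kcna6 passed without withdrawal 6 (adjusted p = 0.0357). Summed over the 6 Kv1 members, the levels ran between 314 CPM in withdrawal 2 and 431 CPM in withdrawal 5, with the 4 controls between 330.5 and 385 CPM.

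Kcnc2 encodes a Kv3 channel, which closes quickly and lets neurons fire at high rates, and it rose in withdrawal. It lay at 125, 121, 92.7, 134 and 71.1 CPM in withdrawal 1, 3, 4, 5 and 6, against 62.3, 47.6 and 61.2 CPM in controls 1, 3 and 4. Its groups did not overlap (log2 change 0.93 ± 0.20 (SE), adjusted p = 0.0171), and withdrawal 2, with 21.0 CPM, was the lowest of all libraries, while control 2 held 104 CPM. The Kcnc2 call was lost without control 3 (adjusted p = 0.07).

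The Kcnh genes encode the EAG, ERG and ELK channels. Kcnh3, an ELK channel known in mouse from forebrain neurons, lay at 2.19, 1.74, 4.90, 2.31 and 3.14 CPM in withdrawal 1, 3, 4, 5 and 6, against 13.7, 28.7 and 13.8 CPM in controls 1, 3 and 4. The groups were well apart (2.86 ± 1.25 CPM in withdrawal and 18.7 ± 8.63 CPM in controls, SD), the largest difference of any member on the log2 scale (log2 change -2.72 ± 0.34 (SE), adjusted p = 0.00216). Withdrawal 2 held 24.9 CPM and control 2 held 114 CPM. Kcnh3 overlaps Mcrs1 on the opposite strand, which had 11.5 FPKM, and the strand setting of the counting is not given in the sources used here. Kcnh1, an EAG channel, lay between 9.26 and 32.0 CPM in the 5 withdrawal libraries and between 37.0 and 60.1 CPM in controls 1, 3 and 4 (log2 change -1.30 ± 0.33 (SE), adjusted p = 0.0316). Its withdrawal values were themselves spread widely, and the call was lost without withdrawal 1, withdrawal 4, withdrawal 5, control 1 or control 3 (adjusted p between 0.0535 and 0.137). Kcnh6, an ERG channel at a low level, rose: it lay at 5.74, 5.78, 6.07, 7.33 and 6.22 CPM in withdrawal 1, 3, 4, 5 and 6, against 3.59, 3.21 and 4.61 CPM in controls 1, 3 and 4 (log2 change 0.70 ± 0.16 (SE), adjusted p = 0.0228). Its groups did not overlap, and the call was lost without withdrawal 5, control 1 or control 3 (adjusted p between 0.0535 and 0.0978). Kcnh2, the most abundant of these genes at 13.3 FPKM and the mouse counterpart of the cardiac channel hERG, lay between 67.2 and 86.3 CPM in the 5 withdrawal libraries and between 56.4 and 66.3 CPM in controls 1, 3 and 4 and did not pass the threshold. Kcnh5, Kcnh7 and Kcnh8 did not pass.

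The modifier Kv genes (Kcnf, Kcng, Kcns and Kcnv) make subunits that form no channel alone and assemble with Kv2 pores. Of the 8 members, 2 fell and 0 rose, against 6.77% and 5.38% of all genes. Below 0 were 7 of the 8 log2 changes, against 8384 of all 17426 genes, and their median was -0.53, against 0.01 over all genes. Kcng2 lay at 4.73, 1.84, 2.22, 1.97 and 1.86 CPM in withdrawal 1, 3, 4, 5 and 6, against 8.17, 13.0 and 7.54 CPM in controls 1, 3 and 4 (log2 change -1.93 ± 0.33 (SE), adjusted p = 0.00746). Withdrawal 1 was the highest of its 5 withdrawal values and still under all controls. Kcnv1 lay at 4.62, 1.20, 3.09, 2.90 and 1.54 CPM in withdrawal 1, 3, 4, 5 and 6, against 10.6, 22.4 and 4.79 CPM in controls 1, 3 and 4 (log2 change -2.25 ± 0.50 (SE), adjusted p = 0.0202). Its withdrawal 1 and control 4 values lay close together, and without control 3 the call was lost (adjusted p = 0.0958). Kcns3 did not pass the threshold and lay between 1.46 and 3.08 CPM in the 5 withdrawal libraries and between 2.09 and 3.76 CPM in controls 1, 3 and 4, with 12 CPM in control 2, and its unadjusted p in 10 libraries was 0.0132. Kcng4, the most abundant modifier at 20.0 FPKM, held 5.51 CPM in withdrawal 2 and 10.5 CPM in control 2, and elsewhere lay between 53.3 and 114 CPM in the 5 withdrawal libraries and between 67.8 and 120.4 CPM in controls 1, 3 and 4.

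Of the 3 Kv4 genes and the 4 Kv7 genes, none passed the threshold. Kcnd2 lay between 197 and 287 CPM in the 5 withdrawal libraries and between 202 and 245 CPM in controls 1, 3 and 4, and its groups overlapped. The Kv7 members summed to 1370.0 CPM in control 2, more than in any other library, whose highest sum was 525 CPM in control 3.

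Among the auxiliary subunits, 1 rose and 2 fell of 14, against 5.38% and 6.77% of all genes. Both KChIP genes that changed bind Kv4 channels and calcium, and they moved in opposite directions. Kcnip2 lay at 47.6, 12.5, 26.6, 15.7 and 12.1 CPM in withdrawal 1, 3, 4, 5 and 6, against 56.0, 118 and 50.2 CPM in controls 1, 3 and 4. Withdrawal 1, at 47.6 CPM, came close to control 4, at 50.2 CPM (log2 change -1.72 ± 0.45 (SE), adjusted p = 0.0377). The call was lost without withdrawal 3, withdrawal 4, withdrawal 5, control 1 or control 3 (adjusted p between 0.0529 and 0.166). Kcnip4 lay at 99.9, 96.6, 86.9, 109 and 71.0 CPM in withdrawal 1, 3, 4, 5 and 6, against 71.7, 54.3 and 60.6 CPM in controls 1, 3 and 4 (log2 change 0.58 ± 0.14 (SE), adjusted p = 0.0273). Withdrawal 6 lay below control 1, so the groups overlapped, and the call was lost without withdrawal 1, withdrawal 3, withdrawal 5, control 3 or control 4 (adjusted p between 0.0545 and 0.103). Kcnip1 and Kcnip3 did not pass. Kcnab2, a Kv beta subunit that steers Kv1 channels to the axon, lay at 124, 138, 115, 137 and 98.5 CPM in withdrawal 1, 3, 4, 5 and 6, against 177, 275 and 156 CPM in controls 1, 3 and 4 (log2 change -0.73 ± 0.18 (SE), adjusted p = 0.0288). Its groups did not overlap, and withdrawal 2 held 196 CPM and control 2 held 1199.6 CPM. The Kcnab2 call was lost without withdrawal 1, withdrawal 4, withdrawal 5 or control 3 (adjusted p between 0.0506 and 0.0689).

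Kcne2, a single-span subunit, did not pass the threshold but differed widely between libraries. It lay at 31.4, 1.29, 49.4, 22.2 and 85.5 CPM in withdrawal 1, 3, 4, 5 and 6, against 75.8, 71.2 and 90.4 CPM in controls 1, 3 and 4. Withdrawal 2 held 126 CPM and control 2 held 0.319 CPM. Kcnj13, the Kir7.1 channel of choroid plexus, followed the same libraries: it lay at 24.9, 0.797, 40.0, 17.4 and 72.4 CPM in withdrawal 1, 3, 4, 5 and 6, against 60.6, 50.1 and 67.1 CPM in controls 1, 3 and 4, with 99.4 CPM in withdrawal 2 and 0.266 CPM in control 2. Withdrawal 3 and control 2 were the lowest for both. Ttr, the defining choroid plexus transcript, had 38.6 CPM in withdrawal 3 and 26.1 CPM in control 2, against at least 1926 CPM in each of the other 8 libraries. Kcnj13 overlaps Gigyf2 on the opposite strand, which had 7.29 FPKM. The smaller Kcne and Kcnmb members and Kcnrg did not pass, and the highest of them was Kcnmb4 at 5.72 FPKM.

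**Figure D3:**
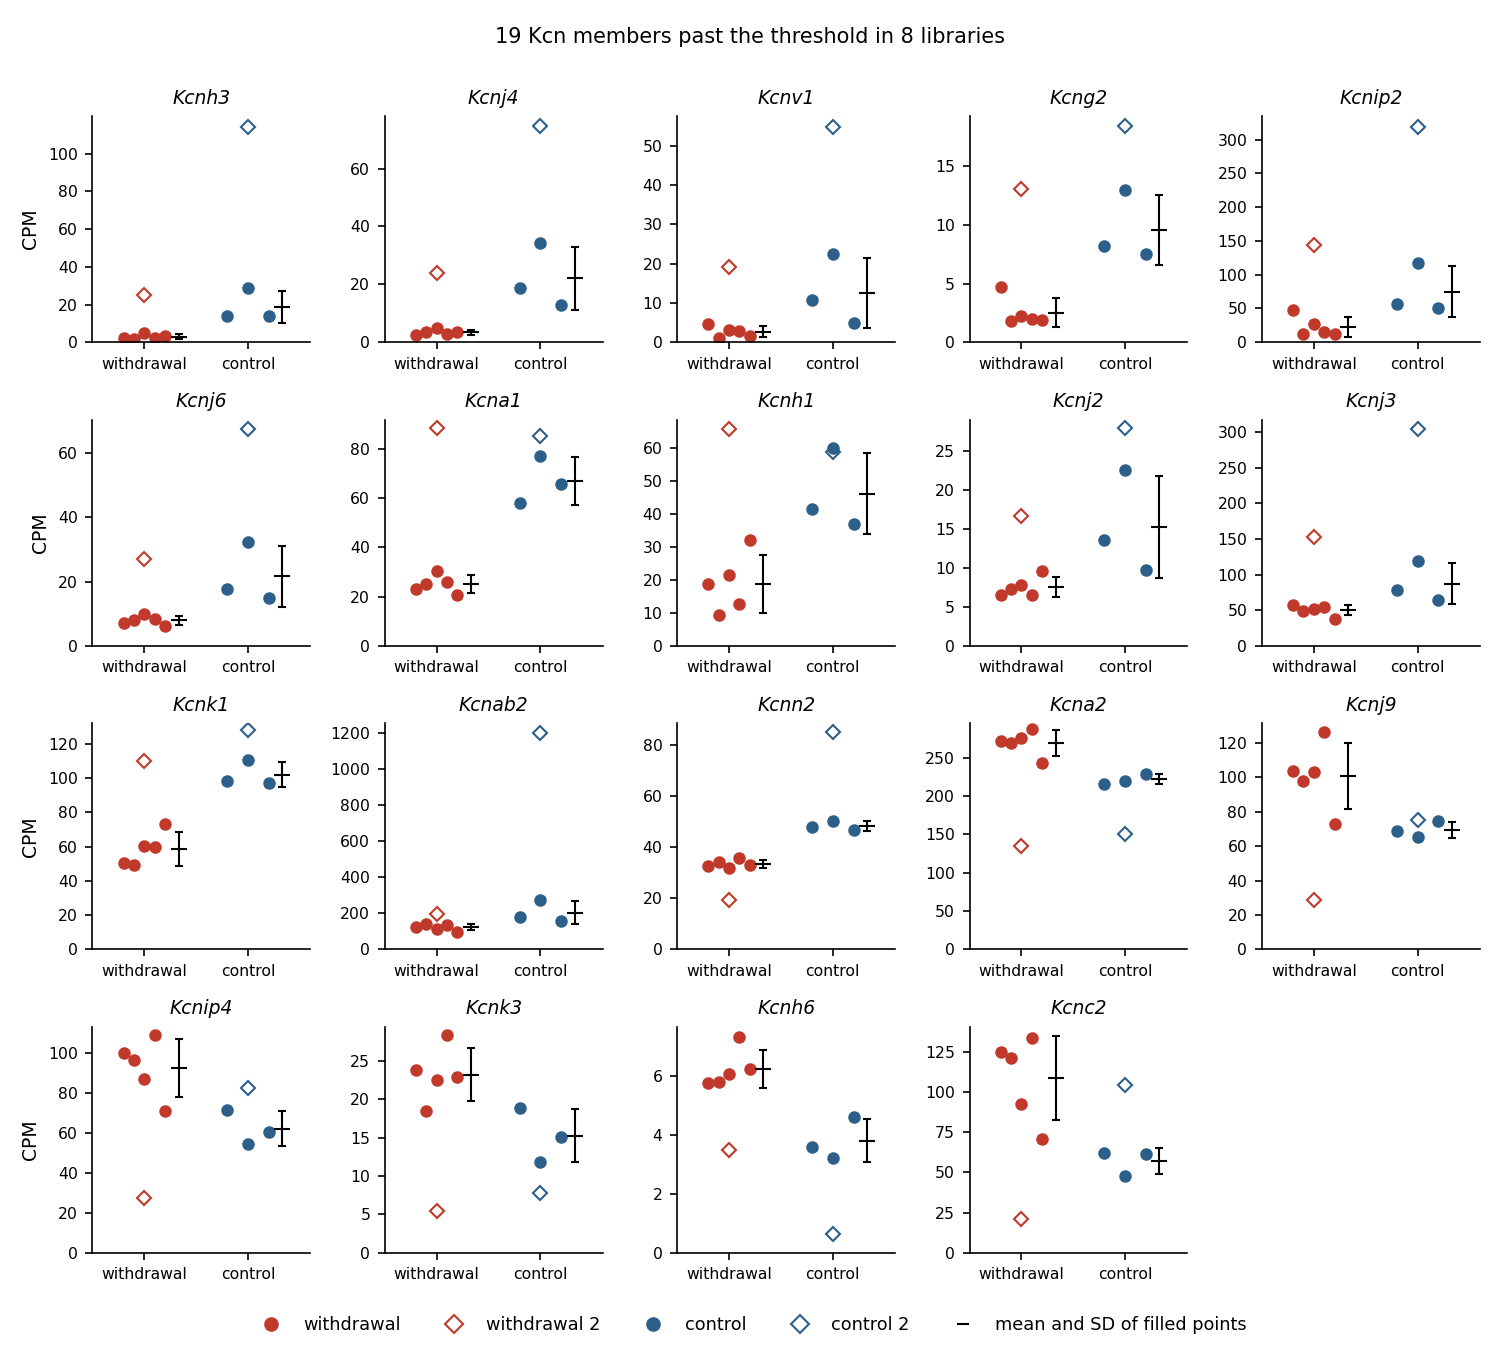
CPM per library of 19 members past the threshold in 8 libraries (vertical axes from 0, one panel per gene, ordered from the largest fall to the largest rise, withdrawal left of control), with the mean and SD of the filled points and with withdrawal 2 and control 2 as open diamonds. The filled groups do not overlap in 16 panels, they overlap in Kcnj9, Kcnip4 and Kcnk3, and in Kcna1 the diamond of withdrawal 2 at 88.6 CPM lies above every control.

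Of the 12 inward rectifier genes, 4 fell and 1 rose, against 6.77% and 5.38% of all genes. Kcnj4 and Kcnj2 encode Kir2 channels, which hold the membrane near the potassium potential. Kcnj4 lay at 2.66, 3.54, 4.84, 2.75 and 3.40 CPM in withdrawal 1, 3, 4, 5 and 6, against 18.9, 34.2 and 13.0 CPM in controls 1, 3 and 4. The lowest control value was more than any of the 5 withdrawal values (log2 change -2.68 ± 0.30 (SE), adjusted p = 0.0014), with means of 3.44 ± 0.874 CPM in withdrawal and 22.0 ± 11.0 CPM in controls (SD). Withdrawal 2 held 23.9 CPM and control 2 held 74.6 CPM. Kcnj2 lay between 6.45 and 9.52 CPM in the 5 withdrawal libraries and between 9.68 and 22.5 CPM in controls 1, 3 and 4, without overlap but with withdrawal 6 and control 4 close together (log2 change -1.02 ± 0.25 (SE), adjusted p = 0.0265). The Kcnj2 call was lost without withdrawal 1, withdrawal 3, withdrawal 4, withdrawal 5 or control 3 (adjusted p between 0.0511 and 0.105). It held in 7 of 15 alternatives, and limma on log2(FPKM + 1) gave an adjusted p of 0.0575. Kcnj12, the third Kir2 gene expressed here, lay between 20.4 and 29.0 CPM in the 5 withdrawal libraries and between 16.4 and 22.2 CPM in controls 1, 3 and 4 and did not pass the threshold.

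Kir3 (GIRK) channels open when receptors coupled to inhibitory G proteins, such as GABA-B receptors, are active. Of their 4 genes, 2 fell and 1 rose, against 6.77% and 5.38% of all genes, and Kcnj5 did not pass the threshold. Kcnj3, whose promoter window is shown above, lay at 57.3, 48.6, 51.1, 54.6 and 38.2 CPM in withdrawal 1, 3, 4, 5 and 6, against 77.7, 119.8 and 64.8 CPM in controls 1, 3 and 4 (log2 change -0.81 ± 0.19 (SE), adjusted p = 0.0252). All withdrawal values were below all control values, and the call was lost without withdrawal 3 or control 3 (adjusted p between 0.0511 and 0.0644). Kcnj6 lay at 6.98, 8.12, 9.75, 8.36 and 6.17 CPM in withdrawal 1, 3, 4, 5 and 6, against 17.6, 32.4 and 14.8 CPM in controls 1, 3 and 4 (log2 change -1.46 ± 0.24 (SE), adjusted p = 0.0072). Its groups did not overlap, and without control 3 the adjusted p was 0.0115. Gm41505, which overlaps Kcnj6 on the opposite strand, had 3.96 FPKM, against 2.49 FPKM for Kcnj6 itself.

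Kcnj9 moved the other way: it lay at 104, 98.1, 103, 127 and 72.9 CPM in withdrawal 1, 3, 4, 5 and 6, against 69.0, 65.3 and 74.4 CPM in controls 1, 3 and 4 (log2 change 0.53 ± 0.15 (SE), adjusted p = 0.0413). Withdrawal 6 lay between the controls, and the call was lost without withdrawal 1, withdrawal 3, withdrawal 4, withdrawal 5, control 1, control 3 or control 4 (adjusted p between 0.0699 and 0.137). Kcnj9 overlaps Gm36937 on the opposite strand, at 6.57 FPKM. Kcnj5 lay at 28.2, 23.9, 22.1, 28.6 and 16.5 CPM in withdrawal 1, 3, 4, 5 and 6, against 20.4, 5.88 and 10.2 CPM in controls 1, 3 and 4. It did not pass the threshold (log2 change 0.98, adjusted p = 0.0843), and withdrawal 6 lay below control 1. In the 2 libraries with few habenula transcripts Kcnj5 was lower than in any of the other 8, with 1.29 CPM in withdrawal 2 and 0.426 CPM in control 2. Kcnj9 had 28.9 CPM in withdrawal 2 and 75.1 CPM in control 2. Kcnj3 had 153 CPM in withdrawal 2 and 304 CPM in control 2, and Kcnj6 had 27.0 CPM in withdrawal 2 and 67.3 CPM in control 2. Kcnj3 and Kcnj6 were thus above, and Kcnj5 below, every one of the 5 other withdrawal libraries in withdrawal 2.

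The KATP pores, which close when ATP is high, did not pass the threshold. Kcnj11 lay at 13.7, 10.4, 13.1, 12.5 and 8.93 CPM in withdrawal 1, 3, 4, 5 and 6, against 16.4, 32.4 and 13.0 CPM in controls 1, 3 and 4 (log2 change -0.82, adjusted p = 0.0778), and control 3 was apart from the other controls. Kcnj8, known from pericytes and vascular muscle, lay between 2.56 and 4.73 CPM in the 5 withdrawal libraries and between 2.67 and 3.49 CPM in controls 1, 3 and 4. Kcnj10, the glial channel with the highest level of all members, lay between 299 and 409 CPM in the 5 withdrawal libraries and between 299.8 and 380.2 CPM in controls 1, 3 and 4 and did not pass (log2 change 0.09, adjusted p = 0.642). Of the 7 astrocyte markers, 2 fell, Gfap (log2 change -0.80, adjusted p = 0.00518) and Aldh1l1 (log2 change -0.21, adjusted p = 0.044), and the median log2 change of the list was -0.17. Kcnj16, the partner of Kcnj10 in glia, lay between 19.6 and 29.7 CPM in the 5 withdrawal libraries and between 15.5 and 20.4 CPM in controls 1, 3 and 4 and did not pass.

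Of the 9 K2P genes, which make leak channels, 1 fell and 1 rose, against 6.77% and 5.38% of all genes. Kcnk1 lay at 50.5, 49.1, 60.5, 59.7 and 73.4 CPM in withdrawal 1, 3, 4, 5 and 6, against 98.4, 111 and 96.9 CPM in controls 1, 3 and 4. Every withdrawal value was below every control value (log2 change -0.80 ± 0.12 (SE), adjusted p = 0.00421), and the call held in each of the 15 alternative settings tried for the 8 libraries. Withdrawal 2 held 110.1 CPM and control 2 held 128 CPM, the first within the range of controls 1, 3 and 4 and the second above it. Kcnk3, an acid-sensitive background channel, lay at 23.8, 18.5, 22.5, 28.3 and 22.9 CPM in withdrawal 1, 3, 4, 5 and 6, against 18.8, 11.9 and 15.1 CPM in controls 1, 3 and 4 (log2 change 0.61 ± 0.16 (SE), adjusted p = 0.0389). Withdrawal 3 lay just under control 1, so the groups overlapped, and the call was lost without withdrawal 1, withdrawal 4, withdrawal 5, control 3 or control 4 (adjusted p between 0.064 and 0.145). The remaining 7 members did not pass. Kcnk9, the channel closest to Kcnk3, lay between 64.4 and 114 CPM in the 5 withdrawal libraries and between 71.4 and 79.3 CPM in controls 1, 3 and 4, and Kcnk2 held 97.2 CPM in control 2, against at most 36.9 CPM in the other 9 libraries.

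Of the 7 genes grouped as calcium- and sodium-activated channels, 1 fell and 0 rose, against 6.77% and 5.38% of all genes. Kcnn2, the SK2 channel, lay at 32.4, 34.3, 31.9, 35.9 and 32.8 CPM in withdrawal 1, 3, 4, 5 and 6, against 47.8, 50.2 and 46.6 CPM in controls 1, 3 and 4. The spread within each group was small, with means of 33.5 ± 1.64 CPM in withdrawal and 48.2 ± 1.86 CPM in controls (SD, n = 5 and 3), and the difference was larger than the whole range of either group (log2 change -0.53 ± 0.06 (SE), adjusted p = 0.00182). Withdrawal 2 held 19.3 CPM and control 2 held 85.2 CPM, so with all 10 libraries the groups still did not overlap. Without control 3 the log2 change was -0.50 (adjusted p = 0.00494), and the call held in each of the 15 alternatives for the 8 libraries. Unlike the other 13 members that fell, Kcnn2 was lower in withdrawal 2 than in any other withdrawal library. In 10 libraries the adjusted p was 0.196. Kcnma1, the BK pore, lay between 650.1 and 964 CPM in the 5 withdrawal libraries and between 642 and 857 CPM in controls 1, 3 and 4 and did not pass; it held 118 CPM in withdrawal 2 and 256 CPM in control 2. Kcnt1, a sodium-activated channel, lay between 122 and 152 CPM in the 5 withdrawal libraries and between 114 and 137 CPM in controls 1, 3 and 4. Kcnn1, Kcnt2 and Kcnu1 did not pass either.

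The 3 non-coding members lie antisense to channel genes and were read at low levels, with a mean of 0.587, 0.917 and 0.985 FPKM for Kcnmb4os1, Kcnmb4os2 and Kcnd3os. None passed the threshold in either fit. Without a stated strand setting, reads of Kcnmb4 and of its antisense transcripts cannot be told apart, nor those of Kcnd3 and Kcnd3os.

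**Figure D4:**
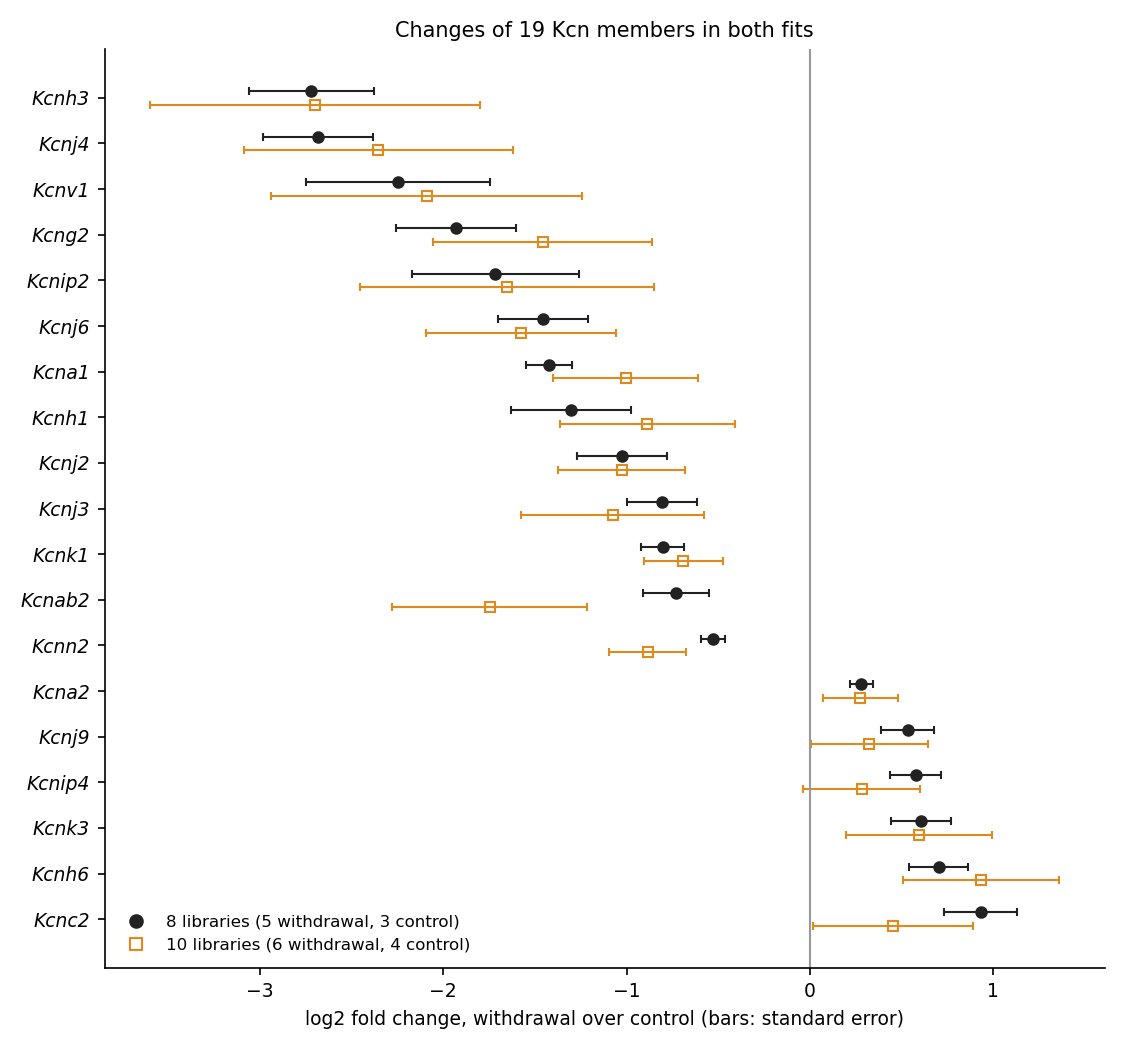
Log2 fold change, withdrawal over control (horizontal axis, bars one standard error), of 19 members past the threshold in 8 libraries, with that fit as filled circles and the 10-library fit as open squares. Every symbol pair lies on the same side of 0, in fits that share 8 libraries. The bars of the 10-library fit are longer in each row, and Kcnab2 moves most, at -0.73 with 8 libraries and -1.75 with 10.

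Control 2 and withdrawal 2 each split the members, which is given as a description of those 2 libraries. In withdrawal 2, 15 members (19.0%) were at least 2-fold the median of the other 8 libraries, against 5.74% of all genes, and 20 (25.3%) were at or under 0.5 times it, against 7.05%. In control 2, 24 members (30.4%) were at least 2-fold that median, against 9.19% of all genes, and 18 (22.8%) were at or under 0.5 times it, against 18.0%. In both libraries 12 members were at least 2-fold. The largest ratios were those of Kcnh3 (6.20 in withdrawal 2 and 28.4 in control 2), Kcnj4 (5.71 in withdrawal 2 and 17.8 in control 2) and Kcnv1 (4.98 in withdrawal 2 and 14.2 in control 2). Kcnip2 and Kcng2 came next in withdrawal 2, and Kcnab2 and Kcnip2 in control 2.

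In both libraries 9 members were at or under 0.5 times the median: Kcng4, Kcnh8, Kcnip1, Kcnj5, Kcnj12, Kcnk3, Kcnma1, Kcnmb1 and Kcnmb4os2. Kcnj5 had 0.0607 times the median in withdrawal 2 and 0.02 times in control 2, Kcng4 had 0.0601 times in withdrawal 2 and 0.114 times in control 2, and Kcnh8 had 0.0771 times in withdrawal 2 and 0.0509 times in control 2. Chat had 0.00532 times its median in withdrawal 2 and 0.00428 times in control 2. Of the 14 members that fell in the 8 libraries, 9 were at least 2-fold in withdrawal 2 and 13 in control 2, against 339 and 522 of all 1179 genes that fell. Of the 6 that rose, none was at least 2-fold in either, and 4 were at or under 0.5 times the median in withdrawal 2 and 2 in control 2, against 247 and 368 of all 937 genes that rose.

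**Figure D5:**
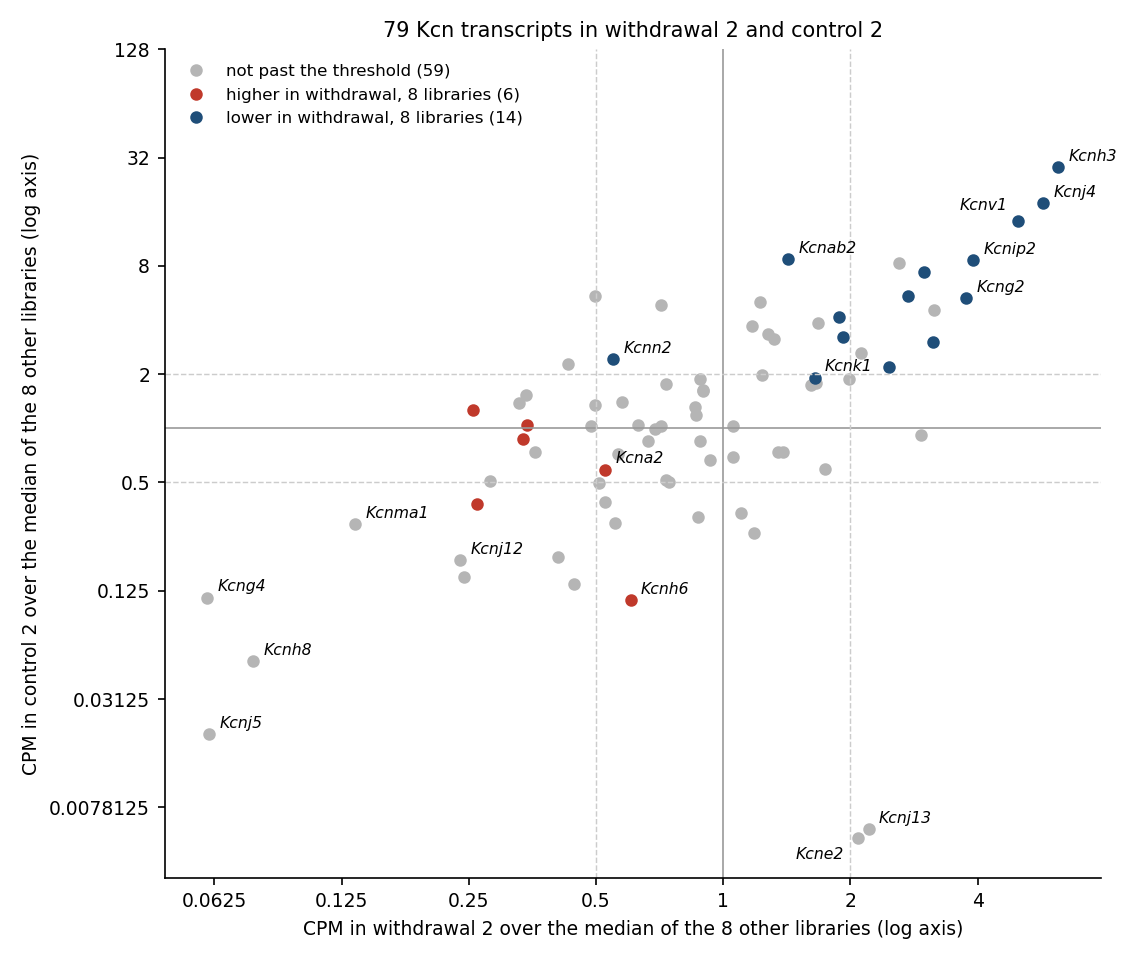
Ratio of each member's CPM in withdrawal 2 (horizontal log axis) and in control 2 (vertical log axis) to its median in the other 8 libraries, one point per member, coloured by its call in the 8 libraries, with dashed lines at 0.5 and 2. The 14 members that fell lie in the upper part, 13 of them above 2 in control 2, while Kcng4, Kcnh8 and Kcnj5 lie low in both and Kcne2 and Kcnj13 lie low in control 2 only.

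Partners of the channels outside the Kcn symbols were read from 8 lists of 32 genes, 30 of which had at least 0.5 FPKM. In the 8 libraries 3 fell and 1 rose, against 12.1% of all genes called. Abcc8, the sulfonylurea receptor that completes neuronal KATP channels, lay at 13.6, 14.7, 15.1, 13.2 and 11.3 CPM in withdrawal 1, 3, 4, 5 and 6, against 28.1, 54.4 and 27.0 CPM in controls 1, 3 and 4 (log2 change -1.43 ± 0.22 (SE), adjusted p = 0.00496). Its groups did not overlap, and control 3 was the highest. Lgi1, a secreted protein of Kv1 complexes, lay between 82.8 and 90.2 CPM in the 5 withdrawal libraries and between 110.4 and 173 CPM in controls 1, 3 and 4 (log2 change -0.69, adjusted p = 0.00823). Slc12a2, a sodium, potassium and chloride cotransporter, lay between 141 and 302 CPM in the 5 withdrawal libraries and between 350.2 and 421 CPM in controls 1, 3 and 4 (log2 change -0.83, adjusted p = 0.0222). Dpp10, a Kv4 partner, rose (log2 change 0.41, adjusted p = 0.0239) and lay between 183 and 225 CPM in the 5 withdrawal libraries and between 132 and 173 CPM in controls 1, 3 and 4.

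In the other partner lists no gene passed. In 8 libraries the gene with the smallest unadjusted p was Vapa for Kv2 partners (log2 change 0.20, adjusted p = 0.0567), Lrrc38 for BK gamma subunits (log2 change -0.98, adjusted p = 0.13) and Gnb5 for Kir3 regulators (log2 change 0.15, adjusted p = 0.0774). The GABA-B receptor genes Gabbr1 and Gabbr2, whose products open Kir3 channels, did not pass; Gabbr1 lay between 1647 and 2144 CPM in the 5 withdrawal libraries and between 1671 and 2037 CPM in controls 1, 3 and 4. With all 10 libraries, 0 of the 30 partner genes passed, and the median log2 change was 0.02 in 8 libraries and -0.08 in 10.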

How the data were processed

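Read counts per gene were deposited as whole numbers by the authors, beside the authors' FPKM columns, per the file headers. The submitters' processing notes list HTSeq 0.6.1, HISAT2 2.2.1, cutadapt 1.9.1 and build mm39. Their roles, the annotation release and the strand setting are not given in the sources used here. GENCODE M21, made on GRCm38, named 52073 of 56691 identifiers, and its overlaps were used by name only. Genes with a mean of at least 0.5 FPKM (17426) were tested with edgeR 4.0.16 (quasi-likelihood, TMM factors, R 4.3.3), 2-sided, over 10 libraries and over 8, without control 2 and withdrawal 2. Alternatives used DESeq2 1.42.0, limma 3.58.1, other filters and leaving out each library. CPM use the 10-library TMM factors; SD is over libraries. P-values set the group difference against the spread between these libraries, 1 per mouse.

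The members, marker lists and partner lists were chosen with earlier results of these data known. Named were members past the threshold, the 10 with the smallest p in each fit, the 10 most abundant, the most abundant of each subfamily, those with the 5 most extreme ratios in control 2 and withdrawal 2, those next to the threshold, and the Kir3 and KATP genes. Some items under these rules are not reported here. Others named in passing were chosen after their values were seen.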

Additional observations from a re-analysis of the deposited data

Results flagged for a closer look

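Single libraries stood far from the rest of their group, by the gap to the nearest library over the group's range (above 0.625 among the 6 withdrawal libraries and 0.829 among the 4 controls). Chance flags about 1 in 20 groups that were not chosen by their values, and the 40 named members give 2 groups each. Some members were named for extreme ratios in control 2 and withdrawal 2, so that rate does not apply to them. Values are CPM. Withdrawal 2 was highest among the withdrawal libraries in Kcna1 (88.6), Kcng2 (13.1), Kcnh3 (24.9), Kcnip2 (144), Kcnj11 (21.8), Kcnj2 (16.6), Kcnj3 (153), Kcnj4 (23.9), Kcnj6 (27.0), Kcns1 (3.52) and Kcnv1 (19.2). Withdrawal 2 was lowest in Kcna2 (134), Kcnh8 (1.29), Kcnj12 (5.76), Kcnma1 (118) and Kcnn2 (19.3). Control 2 was highest among the controls in Kcnab2 (1199.6), Kcnh3 (114), Kcnn2 (85.2), Kcns1 (5.11) and Kcns3 (12), and lowest in Kcna2 (151). Control 3 was highest in Kcnmb4 (24.9) and Kcnmb4os1 (1.15), and withdrawal 6 was highest in Kcnmb4os1 (0.798).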

How the results depend on the processing

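With 10 libraries the count of members called was 0 under edgeR with DESeq2 size factors, limma on log2(FPKM + 1) or log2(FPKM + 0.1), a filter of 1 FPKM and no filter. It was 5 with DESeq2 and 20 without control 2 and withdrawal 2. Leaving out each library in turn gave 0 to 11, the 11 without withdrawal 2. With 8 libraries the count was 20 as reported and 19 to 27 in those 6 settings. It was 8 to 27 leaving out each library in turn (8 without control 3, 11 without withdrawal 5). Over all 17426 genes the reported fits called 29 with 10 libraries and 2116 with 8. For most other settings the count over all genes is not given here. Whether the counts of members moved with those of all genes was not tested. Replicate numbers are shared by both groups' labels, and only 1 of 4 controls correlated best with its own number. Controls 1, 3 and 4 each correlated best with withdrawal 6, while 2 of 4 same-numbered pairs had a correlation over 0.1. The check therefore cannot decide whether the numbers pair the mice. With the replicate block the count was 0 in 10 libraries and 13 in 8. None of the 22 reversed. With 10 libraries, 360 values for the 22 members followed kept their side of the threshold and 36 gained it. With 8 libraries, 273 values kept their side of the threshold, 56 lost it and 1 gained it. The lowest members rest on few reads, down to 3 counts in a library, and small differences there were not detectable.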
